A study of Danio rerio with 10 samples.

Results

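Among the transcripts that estradiol raised in male zebrafish, a small set stood near the control level in fish that received the anti-estrogen ICI together with estradiol. These transcripts were chosen by a rule on the arrays themselves. A probe was kept if the annotation of the array gave it a gene symbol and it had at least 2 values in each group, if the E2 mean exceeded the control mean by at least 1 on the log2 scale with every E2 array above every control array, and if the E2+ICI mean had lost at least 0.75 of that excess. The part lost is called the share removed here, and is the E2 mean minus the E2+ICI mean, divided by the E2 mean minus the control mean. A share of 1 places the E2+ICI mean at the control mean. It is a share of a log2 difference, not of a linear one. The rule kept 34 of the 16416 probes on the array, 33 of them with 1 symbol and all of these from different genes, and 1 with 4 symbols, which is not named. They came from 6111 probes with a symbol and enough values, of which 752 (12.3%) met the conditions on the rise, so that 4.52% of the E2-raised probes with a symbol had a share of 0.75 or more. A further 44 of 10097 probes without a symbol met every other condition and were left out.

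The study exposed adult male fish for 96 h to 10 nM E2 with 1 µM ICI (E2+ICI, 3 arrays), to 10 nM E2 (E2, 3 arrays) or to 0.01% ethanol, the vehicle (control, 4 arrays). The titles of the treated samples give E2 as 10 mM, against 10 nM in the protocol. RNA of 1 whole fish was hybridised on each of the 10 spotted oligonucleotide arrays against a common reference of pooled male and female liver RNA, and the values are log2 ratios of fish to reference after Lowess normalization by the authors. The dyes are stated as Cy3 for the fish and Cy5 for the reference, but which was divided by which is not, and the direction given here is the likely one, on the basis that the yolk precursor vtg3, a known estrogen target, then averaged -0.15 ± 0.21 in E2+ICI, 1.22 ± 0.69 in E2 and -6.44 ± 0.57 in control fish (SD, n = 3, 3 and 4). In RNA of a whole fish, fewer cells of a type and less RNA per cell cannot be told apart.

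Estrogens act mainly through nuclear estrogen receptors, transcription factors that bind DNA or other factors once they hold the hormone. ICI, also known as fulvestrant, competes for the hormone pocket of these receptors and leads to their loss from the cell. In egg-laying vertebrates the best known response is in the liver, which makes yolk and egg envelope proteins under estrogen in females and can be driven to do so in males by added hormone.

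The arrays differed in ways that bear on the set. Array medians lay between -0.02 and 0.02, whereas the SD of the log2 ratios over probes was 0.37 to 0.56 on the E2+ICI arrays, 0.46 to 0.51 on the E2 arrays and 0.80 to 1.07 on the control arrays. Between 196 and 912 probes of an array had no value, and none of the 34 probes lacked one. The 912 were on E2+ICI replicate 2, against 201 and 364 on E2+ICI replicates 1 and 3. The SD over probes was also largest there among the E2+ICI arrays, at 0.56 against 0.37 and 0.41 on replicates 1 and 3. Muscle genes of the whole fish did not stand above the liver reference, with medians over 19 probes of -0.27 to -0.07 on the E2+ICI arrays, -0.50 to -0.33 on the E2 arrays and -0.29 to -0.19 on the control arrays. The part of these differences in the values below was not tested.

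The rise with E2 was mostly modest in the set. The E2 minus control difference ran between 1.01 and 5.24 with a median of 1.26, it was under 1.5 in 28 of the 34 probes, and it reached 2 in 4 of them, dcdc2b, mhc1uda, plagl2 and nr2f1b. The other 718 E2-raised probes had a median difference of 1.56, and 221 of them reached 2. The share removed had a median of 0.860 in the set (0.753 to 1.27) and of 0.363 over all 752 E2-raised probes, where 185 probes had a share of 0.25 or less. These values chose the set and are given as a description. The median of the 34 probes was -0.45, -1.0 and -0.45 on the 3 E2+ICI arrays, 0.47, 0.47 and 0.54 on the 3 E2 arrays, and -1.07, -1.02, -0.71 and -0.52 on the 4 control arrays. E2+ICI replicate 2 thus lay at the level of control replicates 1 and 2, while E2+ICI replicates 1 and 3 lay above all control arrays by this measure.

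**Figure D1:**
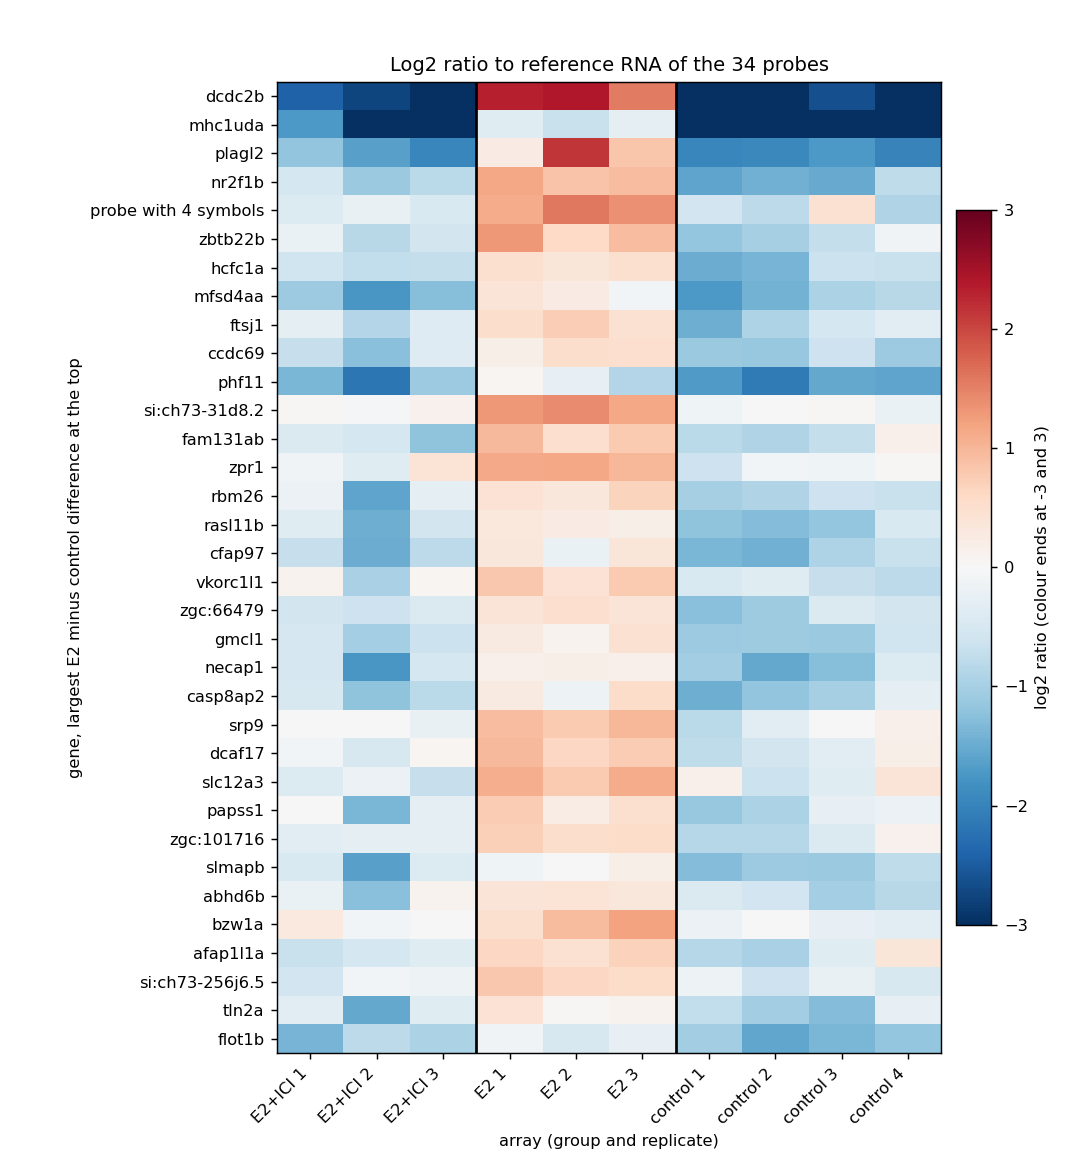
Log2 ratio to the reference RNA of the 34 probes (rows, in order of the E2 minus control difference) on the 10 arrays (columns, E2+ICI at the left, E2 in the middle, control at the right), with colour running between -3 (blue) and 3 (red). The E2 columns are the highest in every row. The rule favours this, since it asks that they exceed the control columns and that the E2+ICI mean lie below the E2 mean. Every E2 array was above every E2+ICI array in 19.9% of all probes tested. E2+ICI replicate 2 is the lowest E2+ICI column in 23 of the 34 rows.

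**Figure D2:**
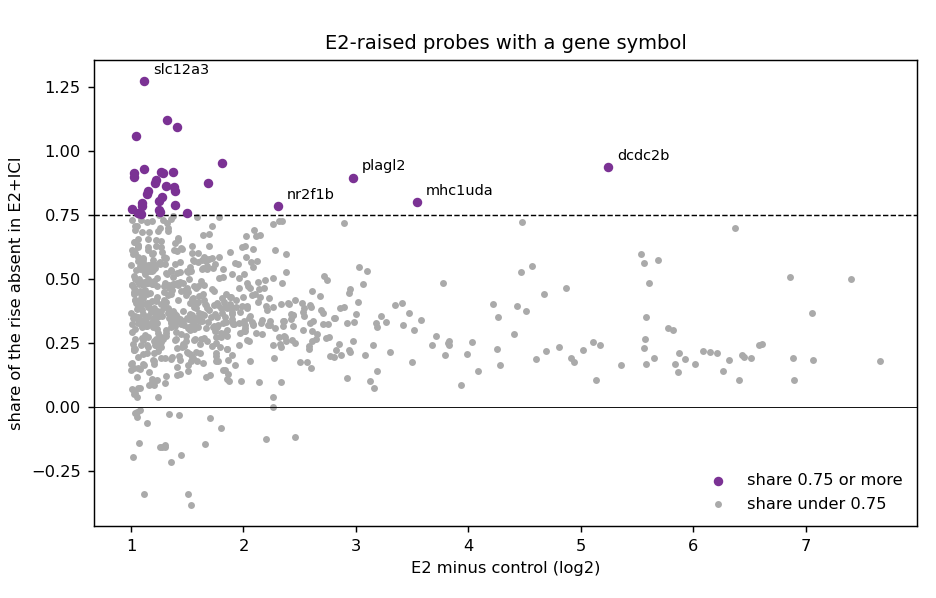
Each point is 1 of the 752 E2-raised probes with a symbol, with the E2 minus control difference of the group means (log2) on the x axis and the share of it that was absent in E2+ICI on the y axis. The dashed line marks 0.75, above which lie the 34 probes of the set, and 28 of these have a difference under 1.5.

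The largest difference in the set belonged to dcdc2b, which encodes a doublecortin domain protein of a family that binds microtubules. The study designed a primer pair for the transcript for its quantitative real-time PCR. The pair is not the array oligonucleotide that gave the log2 ratios below. It is shown because it is the only sequence at hand for a transcript in the set. It is written 5′ to 3′ as the primer table of the study gives it.
dcdc2b forward primer: gctgtggagcttcctgttgac
dcdc2b reverse primer: tttcagggagctcctcatcct
Each primer has 21 bases, of which 12 of the forward and 11 of the reverse primer are G or C. On the arrays the log2 ratios of dcdc2b were -2.43, -2.77 and -3.23 in E2+ICI fish, 2.33, 2.41 and 1.55 in E2 fish and -3.51, -3.08, -2.64 and -3.34 in control fish. All E2 arrays were above the reference RNA and all other arrays far below it, and 2 of the 3 E2+ICI arrays were inside the range of the controls. The means of -2.81 ± 0.40 in E2+ICI, 2.1 ± 0.48 in E2 and -3.14 ± 0.38 in control fish put E2 37.8-fold above control and gave a share removed of 0.936.

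The gene mhc1uda, one of the class I genes of the major histocompatibility complex, whose products present peptides to T cells, was next. Its log2 ratios were -1.72, -3.57 and -4.50 in E2+ICI fish, -0.35, -0.68 and -0.27 in E2 fish and -4.48, -3.69, -3.80 and -3.92 in control fish. The E2 arrays lay close together, but the E2+ICI arrays were spread more widely than those of any other member, with replicate 1 and replicate 2 above all controls and replicate 3 just below all of them. E2 averaged 3.54 above control, and the share removed was 0.799 over the group but 0.364, 0.886 and 1.15 on E2+ICI replicates 1, 2 and 3. Class I genes are closely related and vary between fish, so that a single oligonucleotide may not tell them apart.

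Gene regulators supplied 5 members, and they included the third and the fourth largest differences. The zinc finger transcription factor gene plagl2 had log2 ratios of -1.19, -1.62 and -1.95 in E2+ICI fish, 0.24, 2.15 and 0.83 in E2 fish and -1.95, -1.93, -1.73 and -2.0 in control fish. Its controls were tight and its E2 arrays were not, since E2 replicate 2 stood more than 1 above the other two, and the E2 minus control difference of 2.97 carries an SD among E2 arrays of 0.98. The share removed was 0.895.

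The orphan nuclear receptor gene nr2f1b, of the COUP-TF family, was the only member in any of the 12 gene lists drawn up for the analysis. It had log2 ratios of -0.54, -1.11 and -0.82 in E2+ICI fish, 1.17, 0.86 and 0.92 in E2 fish and -1.59, -1.43, -1.50 and -0.77 in control fish. The E2 arrays stood well clear of both other groups, and control replicate 4 lay above the other controls and among the E2+ICI arrays. The difference of 2.31 was 4.95-fold, and 0.783 of it was absent in E2+ICI.

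zbtb22b, which encodes a BTB zinc finger protein, was at -0.20, -0.83 and -0.56 in E2+ICI fish, 1.29, 0.61 and 0.93 in E2 fish and -1.16, -1.0, -0.72 and -0.10 in control fish. All E2+ICI arrays were inside the control range, which control replicate 4 widened upward. hcfc1a encodes host cell factor C1, a partner of chromatin modifying enzymes. It was at -0.60, -0.75 and -0.71 in E2+ICI fish, 0.47, 0.37 and 0.49 in E2 fish and -1.49, -1.38, -0.65 and -0.68 in control fish. The E2+ICI arrays lay close together (SD 0.08), at the level of control replicates 3 and 4 and above control replicates 1 and 2, and the share removed of 0.756 was near the limit.

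The PHD finger gene phf11 was at -1.37, -2.17 and -1.09 in E2+ICI fish, 0.06, -0.25 and -0.88 in E2 fish and -1.71, -2.13, -1.55 and -1.57 in control fish. E2 replicate 3 lay only 0.21 above the highest E2+ICI array, and no E2+ICI array was inside the narrow control range, 2 being above it and replicate 2 below. Across the 5 gene regulators the differences ran between 1.38 and 2.97 and the shares between 0.756 and 0.895.

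RNA handling and translation gave another 5 members. ftsj1, which encodes a methyltransferase that acts on transfer RNA, was at -0.28, -0.88 and -0.40 in E2+ICI fish, 0.52, 0.75 and 0.45 in E2 fish and -1.47, -0.92, -0.53 and -0.35 in control fish. Its controls ran over a wider span than the distance between E2+ICI and control means. The RNA binding protein gene rbm26 was at -0.18, -1.59 and -0.29 in E2+ICI fish, 0.43, 0.34 and 0.67 in E2 fish and -1.01, -0.89, -0.62 and -0.68 in control fish. Here E2+ICI replicates 1 and 3 were above every control and replicate 2 below every control, and the share removed of 0.911 over the group was 0.559 without replicate 2.

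bzw1a, a regulator of translation initiation in mammals, was at 0.29, -0.08 and 0.01 in E2+ICI fish, 0.48, 0.94 and 1.22 in E2 fish and -0.17, -0.01, -0.24 and -0.32 in control fish. It was the only member with an array at a value that 8 or more probes of that array shared exactly, and it left the set when such values were set to missing or when any of 5 arrays was left out. srp9 encodes a subunit of the signal recognition particle, which delivers nascent proteins to the endoplasmic reticulum, and averaged -0.07 ± 0.13 in E2+ICI, 0.90 ± 0.11 in E2 and -0.25 ± 0.42 in control fish. casp8ap2, a protein of histone messenger RNA processing in mammals, averaged -0.83 ± 0.36 in E2+ICI, 0.22 ± 0.35 in E2 and -0.99 ± 0.51 in control fish. In both genes all E2+ICI arrays were inside the control range, and for casp8ap2 the lowest E2 array was only 0.14 above the highest control.

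Transporters and enzymes included the member with the largest share removed. slc12a3, the gene of the thiazide-sensitive sodium chloride cotransporter of the kidney, was at -0.40, -0.17 and -0.69 in E2+ICI fish, 1.09, 0.80 and 1.12 in E2 fish and 0.16, -0.64, -0.37 and 0.38 in control fish. The E2+ICI minus control difference was -0.30, for a share of 1.27, but 2 of the 3 E2+ICI arrays were inside the control range. mfsd4aa, of the major facilitator superfamily of transporters, also had an E2+ICI mean below control, with -1.08, -1.74 and -1.28 in E2+ICI fish, 0.39, 0.24 and -0.09 in E2 fish and -1.73, -1.43, -0.94 and -0.84 in control fish. Replicate 2 of its E2+ICI arrays was just below the lowest control, and the other two were inside the control range.

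The remaining enzymes sat close to the limit or rested on 1 array. vkorc1l1, a paralog of the vitamin K epoxide reductase gene, was at 0.10, -0.97 and 0.06 in E2+ICI fish, 0.82, 0.44 and 0.78 in E2 fish and -0.45, -0.36, -0.70 and -0.78 in control fish. E2+ICI replicates 1 and 3 lay about midway between the groups while replicate 2 lay below every control, and the share of 0.760 was 0.479 without replicate 2. abhd6b, whose mammalian counterpart hydrolyses monoacylglycerols, had the smallest share in the set (0.753), with -0.19, -1.25 and 0.09 in E2+ICI fish, 0.38, 0.40 and 0.33 in E2 fish and -0.44, -0.57, -1.02 and -0.84 in control fish. Without replicate 2 its share was 0.386. papss1, which makes the sulfate donor PAPS, averaged -0.55 ± 0.74 in E2+ICI, 0.49 ± 0.26 in E2 and -0.62 ± 0.49 in control fish, with replicate 2 again the lowest E2+ICI array.

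Genes of the cytoskeleton, cilia and membranes gave 7 members, including dcdc2b. The share of all probes in each role was not counted, so nothing is read from the sizes of the role groups. afap1l1a, of a family of actin filament associated proteins, was at -0.66, -0.53 and -0.36 in E2+ICI fish, 0.63, 0.45 and 0.69 in E2 fish and -0.86, -0.98, -0.35 and 0.37 in control fish. Control replicate 4 came within 0.09 of the lowest E2 array, and all E2+ICI arrays were inside the control range. tln2a, which encodes talin, the link between integrins and actin, was at -0.34, -1.54 and -0.36 in E2+ICI fish, 0.44, 0.03 and 0.09 in E2 fish and -0.75, -1.05, -1.30 and -0.25 in control fish. Its E2+ICI replicates 1 and 3 were above 3 of the 4 controls and just below control replicate 4, and replicate 2 was below all of them.

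flot1b, the gene of the membrane raft protein flotillin, had the smallest E2 minus control difference (1.01), with -1.40, -0.79 and -0.96 in E2+ICI fish, -0.10, -0.48 and -0.25 in E2 fish and -1.04, -1.56, -1.37 and -1.16 in control fish. Here replicate 2 was the highest of the E2+ICI arrays, and replicates 2 and 3 were above all controls. slmapb, a tail anchored membrane protein gene, was at -0.46, -1.63 and -0.42 in E2+ICI fish, -0.12, -0.00 and 0.19 in E2 fish and -1.30, -1.10, -1.12 and -0.77 in control fish. In the RefSeq annotation of assembly GRCz12tu slmapb and abhd6b lie on the same chromosome with 1 protein-coding gene between them, flnbb, for which the array had no probe with that symbol. Both genes had E2+ICI replicates 1 and 3 above all controls and replicate 2 below all of them, a pattern shown by 5 of the 34 members. Replicate 2 was also the lowest E2+ICI array in 86.1% of the other E2-raised probes with values on all 3 arrays. The share of all probes with the full pattern was not counted, so nothing is read from it. Of the 33 genes, 31 were found in the RefSeq table, on 17 chromosomes with at most 3 on 1, and the next closest neighbours had 23 protein-coding genes between them.

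The other two of this group were necap1, of clathrin coated vesicles, and cfap97, of a family named for cilia and flagella. necap1 averaged -0.92 ± 0.71 in E2+ICI, 0.16 ± 0.02 in E2 and -1.06 ± 0.48 in control fish. cfap97 averaged -0.99 ± 0.44 in E2+ICI, 0.17 ± 0.31 in E2 and -1.10 ± 0.36 in control fish. In both, replicate 2 was the only E2+ICI array below all controls.

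A further 5 members act in signalling, antigen presentation or protein turnover, among them mhc1uda. rasl11b, a Ras-like small GTPase gene, averaged -0.80 ± 0.58 in E2+ICI, 0.24 ± 0.07 in E2 and -1.03 ± 0.39 in control fish. gmcl1, the counterpart of germ cell-less, which is needed for germ cell formation in the fruit fly, averaged -0.72 ± 0.27 in E2+ICI, 0.28 ± 0.17 in E2 and -0.97 ± 0.25 in control fish. dcaf17, a substrate receptor of a ubiquitin ligase, averaged -0.16 ± 0.28 in E2+ICI, 0.78 ± 0.18 in E2 and -0.36 ± 0.40 in control fish. In these 3 genes, and also in zpr1, control replicate 4 was the highest control array. zpr1, a zinc finger protein that binds growth factor receptors in mammals, averaged -0.02 ± 0.39 in E2+ICI, 1.11 ± 0.09 in E2 and -0.20 ± 0.29 in control fish.

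The last 6 named members have no role given here. The most even of them was si:ch73-31d8.2, at 0.03, -0.04 and 0.12 in E2+ICI fish, 1.30, 1.41 and 1.17 in E2 fish and -0.12, -0.02, 0.03 and -0.20 in control fish. All 3 groups were tight (SD 0.08, 0.12 and 0.10 in E2+ICI, E2 and control fish), both E2+ICI and control fish stood at the level of the reference, and the share removed was 0.856 to 0.970 on single arrays. ccdc69 was at -0.69, -1.25 and -0.38 in E2+ICI fish, 0.17, 0.52 and 0.50 in E2 fish and -1.12, -1.14, -0.62 and -1.09 in control fish. Its 3 E2+ICI arrays fell inside, below and above the control range.

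fam131ab was at -0.44, -0.53 and -1.21 in E2+ICI fish, 0.96, 0.49 and 0.78 in E2 fish and -0.81, -0.91, -0.72 and 0.14 in control fish. Its E2+ICI minus control difference was -0.16, a share of 1.12, with control replicate 4 far above the other controls. zgc:66479 was at -0.55, -0.62 and -0.45 in E2+ICI fish, 0.39, 0.50 and 0.38 in E2 fish and -1.25, -1.08, -0.42 and -0.55 in control fish, so that the E2+ICI arrays matched control replicates 3 and 4 and lay above replicates 1 and 2.

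zgc:101716 averaged -0.28 ± 0.03 in E2+ICI, 0.60 ± 0.10 in E2 and -0.50 ± 0.47 in control fish, and si:ch73-256j6.5 averaged -0.27 ± 0.27 in E2+ICI, 0.66 ± 0.14 in E2 and -0.38 ± 0.22 in control fish. The probe with 4 symbols was at -0.42, -0.22 and -0.45 in E2+ICI fish, 1.12, 1.59 and 1.37 in E2 fish and -0.57, -0.79, 0.46 and -0.91 in control fish. Control replicate 3 stood apart from its other controls, and the E2+ICI arrays were all inside their range.

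The limits of the rule cut through a continuous range of values. Just under the share of 0.75 were rpusd1 (0.749), lrrc4ca (0.744), coa8 (0.744) and rbm46 (0.739), and just over it were abhd6b (0.753), hcfc1a (0.756), bzw1a (0.756), vkorc1l1 (0.760), zgc:66479 (0.769) and flot1b (0.771). Just under the difference of 1 were spopla (0.98) and mrps23 (0.97), whose shares of 0.824 and 0.966 would have passed. With a limit of 0.65 the set would hold 73 probes, and with 0.85 it would hold 18.

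In the fit of all probes with limma, all 34 probes were called higher in E2 than in control at an adjusted p under 0.05, where 19.2% of the 16208 probes tested were called higher. With quantile normalization 29 of the 34, and 3039 probes in all, were called higher. For E2+ICI against E2, 22 of the 34 were called lower, where 2.54% of all probes tested and 18.6% of the 752 E2-raised probes were. Every E2 array was above every E2+ICI array in all 34, as in 19.9% of all probes tested. All 5 gene regulators were among these 22, against 2 of the 7 cytoskeleton, cilia and membrane genes and 2 of the 5 transporters and enzymes. Nothing is read from these counts, since the rule chose the probes on the same contrasts. The 12 members that were not called for E2+ICI against E2 were rbm26, rasl11b, vkorc1l1, necap1, casp8ap2, papss1, zgc:101716, slmapb, abhd6b, afap1l1a, tln2a and flot1b.

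E2+ICI against control gave no call among the 34 (0 of 34, where 8.92% of all probes tested were called higher and 3.04% lower in E2+ICI), and 1, nr2f1b, had an unadjusted p under 0.05. With array weights 5 members were called higher in E2+ICI than in control, with values before Lowess 1 was called higher, and with quantile normalization 5 were called lower. The rule favours this count by keeping only small differences. The E2+ICI minus control difference ran between -0.30 and 0.71 with a median of 0.20. The E2+ICI mean was below the control mean in slc12a3, fam131ab, mfsd4aa and afap1l1a alone, against 46.1% of all probes with a symbol and enough values. A mean below control is a share above 1, and the rule cut on the share, so nothing is read from this count. A p that misses the threshold does not show that the E2+ICI and control levels were equal. E2+ICI and control arrays overlapped in all 34 probes, and in 72.3% of all probes with a symbol and enough values. The rule favours this count too. All 3 E2+ICI arrays lay inside the control range in 8 of the 34 (29.4% of all probes tested). Among the other 718 E2-raised probes, 502 were called higher in E2+ICI than in control, and in 569 every E2+ICI array was above every control array.

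Single E2+ICI arrays gave different pictures of the set. The median share removed over the 34 probes was 0.713 on replicate 1, 1.05 on replicate 2 and 0.762 on replicate 3, and 16, 32 and 18 of the probes reached 0.75 on these arrays. Of all probes with a symbol, whatever the size or direction of their E2 difference, 31.1%, 44.5% and 29.7% reached it on these arrays. Of the other E2-raised probes, 1.83%, 18.4% and 0.839% did. On every one of these arrays 10 of the 34 probes reached it. The rule sets the mean of these shares, so nothing is read from these counts. Replicate 2 was the lowest E2+ICI array in 23 of the 34 probes, in 86.1% of the other E2-raised probes with values on all 3 arrays, and in 40.1% of all probes with a symbol. It lay below every control array in 12 members, against 0 for replicate 1 and 3 for replicate 3. The share of all probes in this position was not counted, so nothing is read from these 3 counts. The SD among E2+ICI arrays was 0.5 or more in 10 members, and in 9 of these replicate 2 was the lowest. Of these 10, 2 were called lower in E2+ICI than in E2, against 5 of the 6 members whose SD was under 0.15. Nothing is read from this split, since the SD of the E2+ICI arrays enters the variance behind the calls.

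An E2+ICI value that the rule did not use was had by leaving out 1 E2+ICI array. The probes were chosen on the other 9 arrays, and the share was read on the array left out. The E2 and control arrays still took part in the choice, and their means enter the share, so that only the E2+ICI value was independent. The 53 probes chosen without replicate 1 had a median share of 0.874 on the other two E2+ICI arrays and of 0.584 (quartiles 0.459 and 0.754) on replicate 1. The 17 probes chosen without replicate 2 had medians of 0.890 and 0.886 (quartiles 0.712 and 0.971), and the 51 chosen without replicate 3 had medians of 0.854 and 0.601 (quartiles 0.510 and 0.779). All E2-raised probes had medians of 0.307, 0.550 and 0.234 on replicates 1, 2 and 3 when each was left out. The chosen probes had higher medians than all E2-raised probes, which include them, on each array left out. The E2 and control means that chose them also enter these shares, so nothing is read from this difference. On replicates 1 and 3 most of the chosen probes were under 0.75, with 14 of 53 and 15 of 51 reaching it. On replicate 2, 12 of 17 reached it. Of all E2-raised probes 3.71%, 22.0% and 3.3% reached it on replicates 1, 2 and 3. After quantile normalization 113 of 169 chosen probes reached it on replicate 1, 112 of 139 on replicate 2 and 87 of 234 on replicate 3. Of all E2-raised probes 35.6%, 52.4% and 20.1% then reached it on these arrays.

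**Figure D3:**
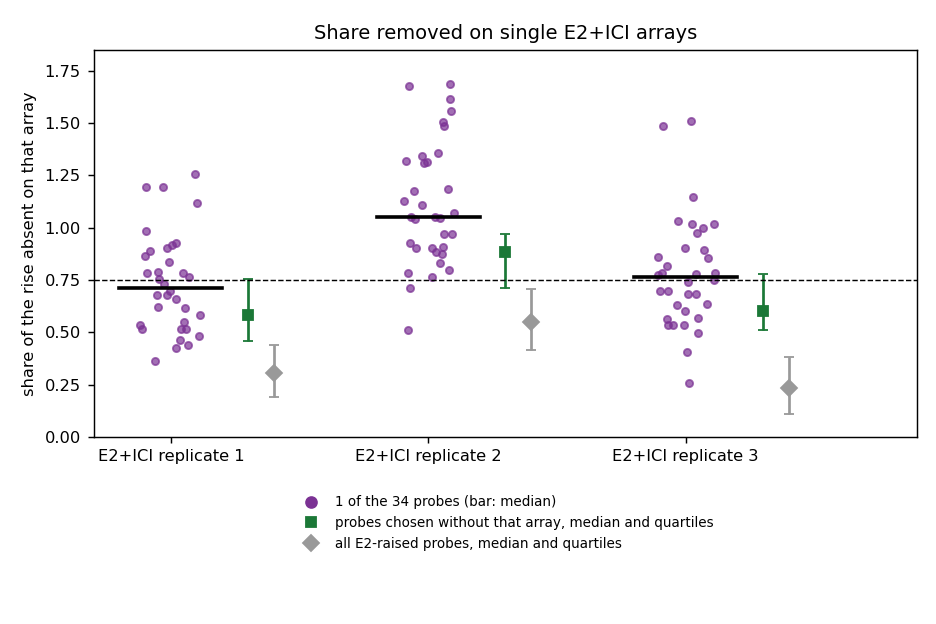
Share of the E2 minus control difference that was absent on each E2+ICI array (y axis) for the 34 probes (circles, with the median as a bar), for the probes chosen without that array (squares, median and quartiles) and for all E2-raised probes read on the array that was left out (diamonds, median and quartiles). The medians of the squares are 0.584, 0.886 and 0.601, and the dashed line marks 0.75.

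The make-up of the set depended on single arrays and on the normalization. Without E2+ICI replicate 2, 17 probes met the rule and 14 of the 34 were among them, and without control replicate 4, 37 met it and 22 of the 34 were among them. With group medians in place of means 27 met it, 18 of the 34 among them. Control replicate 4 was the highest control array in 19 of the 34 members, against 36.5% of the other E2-raised probes and 43.5% of all probes with a symbol. Values before Lowess gave 86 probes (27 of the 34 among them) and quantile normalization, which gives all arrays the same spread, gave 186 (29 of the 34). The median share of the 34 probes was 1.34 after quantile normalization, against 0.860, so that most of them then had an E2+ICI mean below control. Under 15 alternatives, which left out an array, used another normalization, group medians or only complete probes, or dropped repeated values, 7 members were kept every time, namely dcdc2b, plagl2, zbtb22b, mfsd4aa, si:ch73-31d8.2, fam131ab and the probe with 4 symbols. flot1b was kept in the fewest, 6 of 15.

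Another probe with the same symbol was on the array for 5 of the genes. These probes were not chosen by the rule, though they were read on the same fish, and the sequences of the probes were not used here, so that near-identical ones cannot be told apart. In 4 genes the second probe was called higher in E2 than in control (limma), where 19.2% of all probes tested were called higher. In flot1b it was called lower, where 16.5% of all probes tested were called lower. None of the 5 was called for E2+ICI against E2 at an adjusted p under 0.05 (limma, 0.0795 to 0.773), and 2 had an unadjusted p under 0.05. Over all probes tested only 2.54% were called lower in E2+ICI than in E2, so nothing is read from the lack of calls. Calls for a lower level in E2+ICI numbered 2 of the 5 with quantile normalization, with array weights and without control replicate 4, and 1 without E2+ICI replicate 1. None was called for E2+ICI against control at this threshold, and 4 had an unadjusted p under 0.05 (limma). Over all probes tested 8.92% were called higher and 3.04% lower in E2+ICI than in control.

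The second probe of mhc1uda was at -0.88, -1.91 and -2.23 in E2+ICI fish, -0.88, -0.18 and -0.33 in E2 fish and -2.30, -1.93, -1.64 and -2.84 in control fish. Replicate 1 was again the high E2+ICI array, here at the level of E2 replicate 1, and the others were within the controls. E2 exceeded control by 1.72 (SE 0.35, adjusted p = 0.00287, limma), and the share removed was 0.707.

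The second probe of zbtb22b was at -0.14 and -0.25 in the 2 E2+ICI fish with a value, 0.70, 0.12 and 0.69 in E2 fish and -0.91, -0.57, -0.76 and -0.74 in control fish. Unlike the probe in the set, it had both E2+ICI arrays above all controls. The E2 minus control difference was 1.25 (SE 0.18, adjusted p = 0.000400, limma) and the share 0.562.

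For hcfc1a the second probe was at -0.07, -0.09 and -0.05 in E2+ICI fish, 0.20, 0.29 and 0.20 in E2 fish and -0.68, -0.43, -0.53 and -0.27 in control fish. The 3 groups did not overlap, and E2+ICI lay between the others. The E2 minus control difference was 0.71 (SE 0.14, adjusted p = 0.00204, limma), less than that of the probe in the set, and the share was 0.419.

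rbm26 differed more between its probes. The second probe was at -0.15, -0.12 and 0.35 in E2+ICI fish, 0.07, 0.49 and -0.03 in E2 fish and -0.55, -0.56, -0.48 and -1.43 in control fish. E2+ICI arrays overlapped the E2 arrays and stood above all controls, and E2+ICI replicate 2, which made the large share of the probe in the set, was not low here. The difference was 0.93 (SE 0.25, adjusted p = 0.0131, limma) with a share of 0.164.

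flot1b had its probes in opposite directions. The second probe was at 0.24, 0.64 and 0.49 in E2+ICI fish, 0.24, 0.18 and 0.13 in E2 fish and 0.69, 0.67, 1.62 and 1.84 in control fish. E2 was below every control on it, by -1.02 (SE 0.28, adjusted p = 0.0142, limma), so that a direction for the gene rests on which probe is read.

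**Figure D4:**
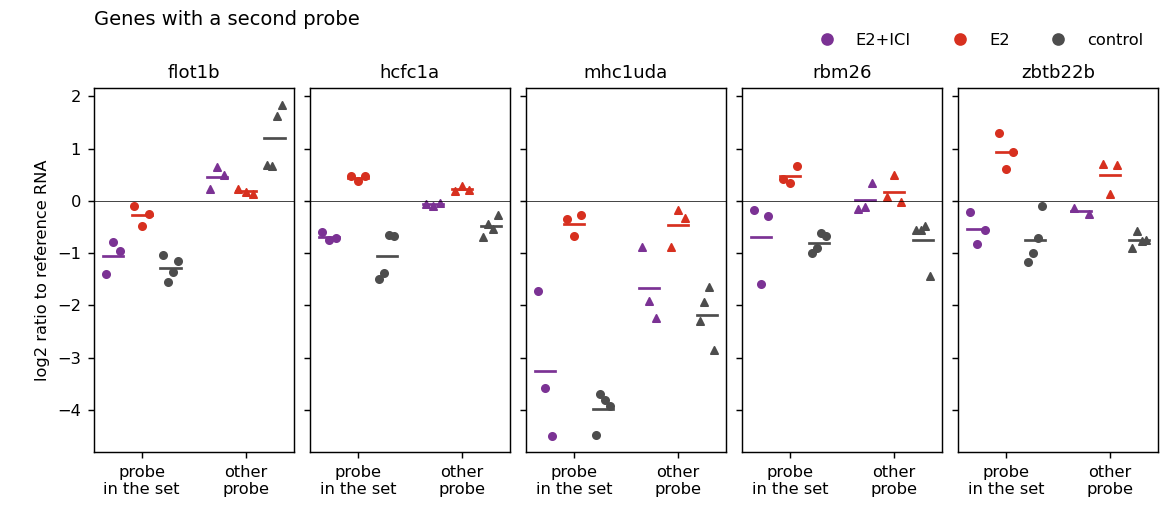
Log2 ratio to the reference RNA (y axis) of the probe in the set (circles) and of the other probe with the same symbol (triangles) for 5 genes, with 1 point for each array and a bar for the group mean, in the order E2+ICI, E2 and control. The second probe puts E2 above control in hcfc1a, mhc1uda, rbm26 and zbtb22b and below it in flot1b.

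The well known estrogen targets were not in the set. None of the 9 tested probes of the estrogen marker list and none of the 10 of the egg envelope and oocyte list was a member. Of these, 3 and 9 were E2-raised, and with 4.52% of all E2-raised probes in the set nothing is read from these counts. The estrogen receptor gene esr1 averaged -0.23 ± 0.55 in E2+ICI, 1.06 ± 0.46 in E2 and -1.03 ± 0.48 in control fish, and its share removed of 0.617 was below the limit, as was that of vtg3 (0.178). For esr1, E2 exceeded control by 2.09 (SE 0.32, adjusted p = 0.000509, limma), and E2+ICI against E2 had an adjusted p of 0.0539.

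No other member stood on the list with nr2f1b. Of the 47 probes of this list, of nuclear receptors and their coregulators, 7 were called higher and 3 lower in E2 than in control. Over all probes tested 19.2% were called higher and 16.5% lower. The median difference was -0.05 against -0.07 over all probes tested. For E2+ICI against E2, 1 probe, nr2f1b, was called lower, as were 2.54% of all probes tested. nr2f1a, its closest relative, averaged 0.21 ± 0.15 in E2+ICI, 0.04 ± 0.15 in E2 and 0.30 ± 0.26 in control fish, and nr2f2 averaged -0.09 ± 0.35 in E2+ICI, -0.35 ± 0.26 in E2 and 0.08 ± 0.27 in control fish, with no call for either.

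Lists of egg, germ cell and dividing cell genes are given because most of their probes were called higher in E2 than in control. Of all probes tested 19.2% were called higher and 16.5% lower. Of the 24 probes of the cell cycle and DNA replication list, 16 were called higher and 2 lower in E2 than in control. For E2+ICI against control, 14 of them were called higher and 1 lower, where 8.92% and 3.04% of all probes tested were. All 10 probes of the egg envelope and oocyte list were called higher in E2 than in control, with a median difference of 5.46. For E2+ICI against control 9 were called higher, where 8.92% of all probes tested were. The median of the list was -0.30, -1.22 and 0.01 on the E2+ICI arrays, 0.38, 0.23 and 0.24 on the E2 arrays and -5.46, -4.14, -4.64 and -5.59 on the control arrays. E2+ICI replicate 2 was the lowest E2+ICI array here too, as it was for the cell cycle and DNA replication list, whose medians were -0.28, -0.71 and -0.12 on the E2+ICI arrays, 0.14, 0.07 and 0.07 on the E2 arrays and -1.84, -1.37, -1.37 and -1.33 on the control arrays.

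These lists held E2-raised probes with smaller shares than the rule asks for. The 9 E2-raised probes of the egg envelope and oocyte list had a median share removed of 0.204, and the 15 of the cell cycle and DNA replication list had 0.275, with no member in either. Of the germ cell and testis list, 6 of 10 probes were called higher and 1 lower in E2 than in control (19.2% and 16.5% of all probes tested). For E2+ICI against E2, 1 was called lower (2.54% of all probes tested). The part of egg, germ cell and cycling cell transcripts in the values of the members was not tested.

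Marker lists of other tissues are set beside the 19.2% of all probes tested that were called higher and the 16.5% that were called lower in E2 than in control. Liver plasma protein genes had medians of -0.11 to -0.06 on the E2+ICI arrays, -1.48 to -1.22 on the E2 arrays and -0.12 to 0.55 on the control arrays. Of their 9 probes, 1 was called higher and 5 lower in E2 than in control. For E2+ICI against E2, 4 of the 9 were called higher, against 467 of the 16208 probes tested. Immune cell genes had 0 probes called higher and 7 of 11 called lower in E2 than in control. Muscle genes had 1 of 19 called higher and 4 lower, the last a share near that of all probes. Neuron and glia genes had 2 of 22 called higher and 1 lower, exocrine pancreas genes 0 of 5 and 2, red blood cell genes 0 of 7 and 1, and ribosomal protein genes 2 of 9 and 0. None of these lists held a member. Only E2-raised probes could be members, and of these lists only that of neuron and glia genes held one, 1 of its 22 probes. Nothing is therefore read from the absence of members. Whether the members follow the amount of any tissue was not tested.

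**Figure D5:**
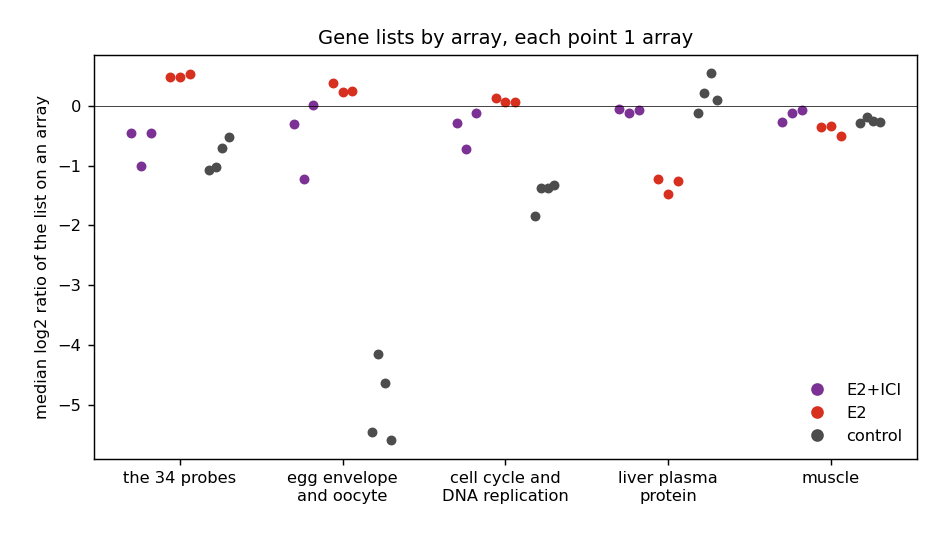
Median log2 ratio to the reference RNA on each array (y axis, 1 point for each array) for the 34 probes and for 4 of the gene lists (x axis), with E2+ICI, E2 and control from left to right in each. For the set, E2+ICI replicate 2 (-1.0) lies among the controls (-1.07 to -0.52) and replicates 1 and 3 (both -0.45) just above them, whereas the E2+ICI arrays of the egg envelope and oocyte list lie far above their controls.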

How the data were processed

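The authors spotted 16416 oligonucleotides, scanned the arrays with GenePix, subtracted the local background, applied Lowess normalization within each array and chose good arrays by scatter plot, and the deposited values are log2 ratios. A second deposited table, of log2 ratios before Lowess, served as an alternative. Software versions and genome build were not given in the sources used here, and no spot intensities were used. The number of arrays (10) limits the precision. The rule was applied in Python 3.11.15 (numpy 2.4.6, pandas 2.3.3). A single limma 3.58.1 fit in R 4.3.3 covered the 3 groups and 16208 probes, each having 2 or more values in every group and no more than 6 missing (prior degrees of freedom 4.18). Its two-sided p-values were adjusted over these probes by Benjamini-Hochberg, with a threshold of 0.05. The study itself used SAM. The rule and the fit were checked on simulated data with known changes. Members, lists, roles and tests were chosen with earlier results of these data known, and the calls of members are therefore given as a description, not as tests of them. Members with values per array were the 12 with the largest rise, the 6 with the largest and the 6 with the smallest share, members of a list, genes with a second probe, and some others for their role.

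Of the probes, 6088 carried 1 symbol, 75 several and 10253 none here. Replicates are individual fish. Replicate numbers recur in all groups, but same-numbered arrays did not deviate together (r between -0.23 and 0.18 over 9 pairs and 13850 probes), so that no pairing was used. Alternatives were values before Lowess, quantile normalization, repeated values set to missing, complete probes only, array weights, a replicate block, group medians, other limits, symbols averaged, and each array left out. Promoter motifs were not analysed here. Figures were drawn with matplotlib 3.10.9.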

Additional observations from a re-analysis of the deposited data

Results flagged for a closer look

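In 4 of 39 sets of 4 control arrays, 1 array lay far from the other three for its gene, by Dixon's test at the 95% level, a level at which chance picks out about 1 group in 20. For ccdc69, control replicate 3 was at -0.62 and the others at -1.14 to -1.09. For rasl11b, control replicate 4 was at -0.45 and the others at -1.30 to -1.16. For gmcl1, control replicate 4 was at -0.60 and the others at -1.11 to -1.07. On the second probe of rbm26, control replicate 4 was at -1.43 and the others at -0.56 to -0.48. Control replicate 4 was thus the high array for 2 members and the low one for the second probe of rbm26.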

How the results depend on the processing

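The size of the set moved with the settings. Against 34 probes, the rule kept 86 with values before Lowess (27 of the 34 among them) and 186 after quantile normalization (29 of the 34). It kept 73 with a share of at least 0.65, 18 with at least 0.85, 6 with a rise of at least 1.5 and 27 with group medians (18 of the 34). Leaving out 1 array gave 17 (without E2+ICI replicate 2, 14 of the 34) to 53 (without E2+ICI replicate 1, 32 of the 34). Of 510 member shares under an alternative, 463 moved by less than the spread between replicates and 47 by more, 9 of these downward. The median share of the 34 was 0.860, and 1.34 with quantile normalization. For E2+ICI against E2, 879 calls became 385 before Lowess, 3930 with quantile normalization, 3846 with array weights and 2090 with a replicate block, and ran between 162 (without E2+ICI replicate 2) and 2696 (without control replicate 4). Of the 34 members 22 were called lower, against 15 before Lowess, 34 with quantile normalization, 33 with array weights and 32 with the replicate block, where 1 of 9 same-numbered arrays correlated best with its own number. Of the 879 calls 467 were higher and 412 lower in E2+ICI, against 145 and 240 before Lowess. For E2+ICI against control, 1939 calls became 1026 with quantile normalization and 3631 with array weights, and ran between 897 (without E2+ICI replicate 3) and 2444 (without control replicate 4). They were 1446 higher and 493 lower, against 552 and 474 with quantile normalization, where 5 members were called lower in E2+ICI than in control. Members called higher numbered 5 with array weights, 1 before Lowess and 1 with the replicate block, against 0. The share on left-out E2+ICI replicate 1 was 0.584, and 0.862 with quantile normalization, while that of all E2-raised probes was 0.307 and 0.624. E2 against control kept its count within 1.5 times of 5773 in every alternative. Of the 34 members, 29 were called higher in E2 than in control with quantile normalization. All 34 were before Lowess, with array weights and with the replicate block. Second probes lost their call for E2 against control in 3 of 77 cases, mhc1uda with quantile normalization, rbm26 without E2 replicate 2 and flot1b without E2 replicate 3. For E2+ICI against E2 the second probes had 0 calls, and 2 with quantile normalization, 2 with array weights, 1 with the replicate block, and 0 to 2 with an array left out. The cause of these moves was not tested, and 3 or 4 arrays per group limit what can be called.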
